A study of Mus musculus with 6 samples.

Results

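The genes described here are 47 genes of mitosis and the G2/M part of the cell cycle, picked by name from the 19270 genes of the deposited table, and all 47 were found in it. RNA came from mesenchymal tissue at the proximal end of the incisor of 3 control and 3 *Arid1b* mutant mice, aged 1 month, at 4 days after tamoxifen induction. The mutants carried *Gli1-CreER;Arid1b* fl/fl. Tamoxifen activates the Cre recombinase made in *Gli1*-expressing cells of the mesenchyme and of the epithelium, and it is these cells, not the whole tissue, that lose ARID1B, a subunit of the BAF chromatin remodeling complex. The controls are labelled wild type, whereas the study's methods give them as *Arid1b* fl/fl mice, and they received the same tamoxifen. For each gene the table gives the authors' mean over the 3 libraries of a group as a normalized value. Values per gene and mouse were not analysed here, so the means carry no SD, no test across mice was run, and "higher" or "lower" compares these means only.

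Cells that divide make most of these transcripts in a wave that starts late in S phase and peaks in mitosis, and the mRNAs and proteins are cleared as the cells leave mitosis. CDK1 with cyclin B drives entry into mitosis, the spindle checkpoint holds it until every kinetochore is attached, and the anaphase-promoting complex (APC/C) then destroys cyclin B and securin. In the continuously growing mouse incisor, slowly cycling mesenchymal stem cells (MSCs) feed a zone of rapidly dividing transit amplifying cells (TACs), and cells of the cervical loop epithelium divide as well. The study asked whether loss of *Arid1b* takes MSCs out of quiescence. The mutant and control means compared here are of whole tissue and do not separate MSCs from other dividing cells.

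The targeted gene *Arid1b* had means of 97.6 in control and 38.03 in mutant mice, a ratio of 0.390. The upper quartile of the normalized values was between 44.57 and 44.58 in each of the 6 libraries, whereas the mean over genes ranged from 50.3 to 54.5 in the controls and from 49.2 to 52.8 in the mutants. The sex of the animals is not in the labels. The X-linked transcript *Xist* had means of 3368 in control and 813.8 in mutant mice. The Y-linked *Ddx3y* was at the lowest mean of its group in the controls and at 65.3 in the mutants. By these transcripts the groups differed in sex, with males among the mutants and no sign of a male among the controls. Effects of sex therefore cannot be told apart from those of genotype. If each value is taken as the reads plus 1, scaled by library, the libraries held about 37123643 to 49594469 reads on the 19270 genes, and each member had at least about 661.5 reads in a group. Under that reading the 95% counting interval of a member's log2 ratio was at most 0.14 wide on either side. These intervals cover counting error only and say nothing about the spread between mice.

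Of the 47 genes, 45 had the higher mean in mutant mice, against 50.5% of all 19270 genes, and under scaling to the library means it was the same 45 members against 63.7% of all genes. Their median log2 ratio of mutant over control was 0.35, a ratio of 1.28, and the median of all genes was 0.002. The log2 ratios ran from -0.29 (*Spc24*) to 0.71 (*Ccnb2*), and all 45 higher members had a counting interval above 0. The higher means were thus spread over nearly all members and were small. A ratio over 1.5, the fold the study used, was reached by 6 members (12.8%), against 7.37% of all genes, and no member was over 1.5-fold lower, against 5.8% of all genes. Under scaling to the library means 11 members (23.4%) were over 1.5-fold higher, against 8.36% of all genes. These shares over all genes include many genes of low level, whose ratios scatter widely. Among the 10311 genes with a mean over both groups of at least 10, 2.15% were over 1.5-fold higher, and 6 of the 45 members at that level were. A mean over 25% higher was reached by 27 of 47 members, against 13.6% of all genes, and by 26 of 45 members with a mean of at least 10, against 5.11% of such genes. The members' values come from the same 6 libraries and tend to move together in dividing cells, so the count of members is not a count of independent observations. In RNA from whole tissue, more dividing cells, more of these transcripts per dividing cell and a different mix of cell types cannot be told apart.

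**Figure D1:**
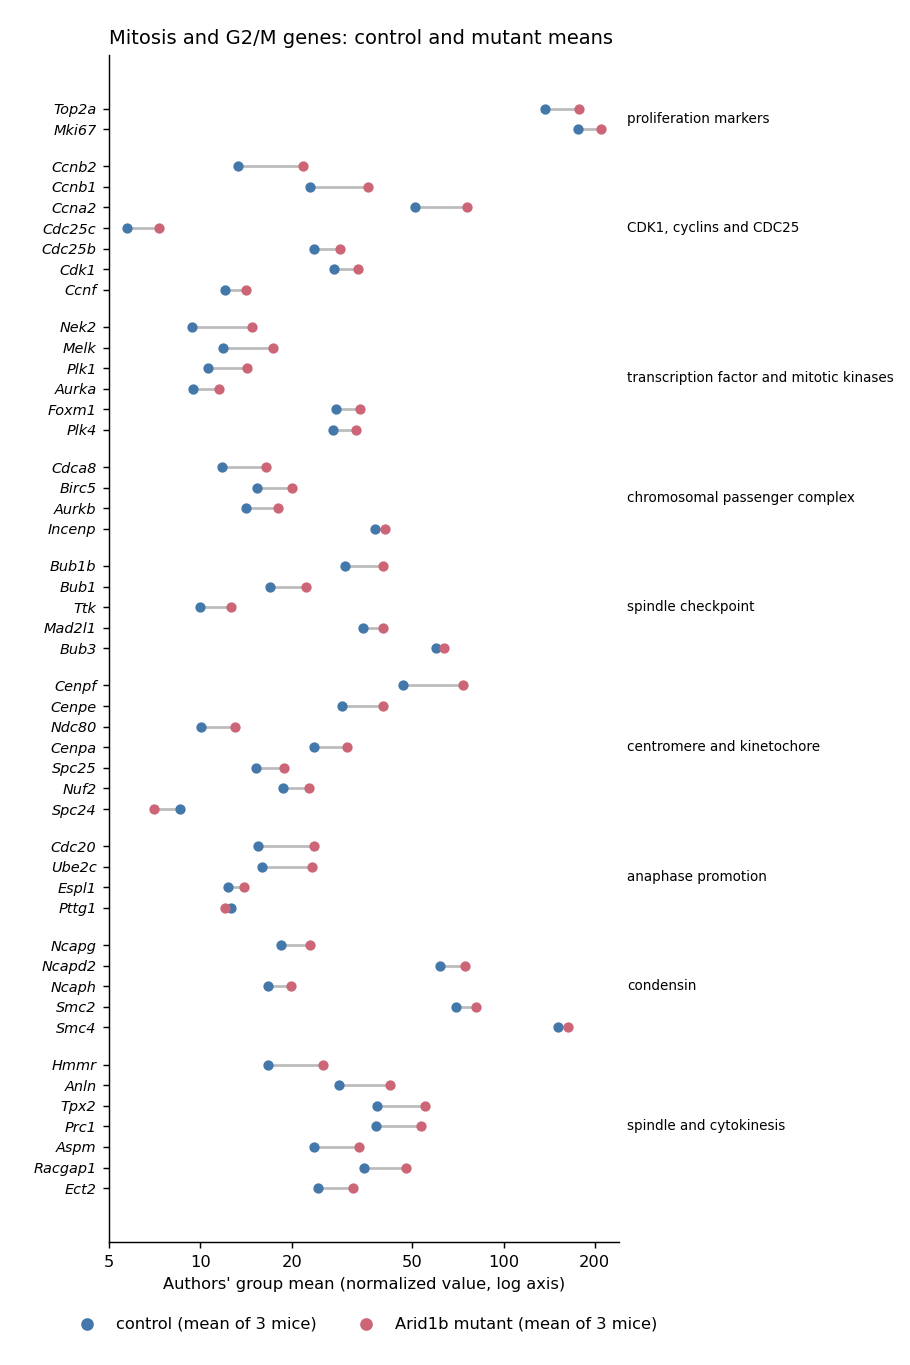
The authors' mean of the 3 control and of the 3 mutant libraries for each of the 47 genes (normalized value, log axis), grouped by role and sorted by log2 ratio within a role. The mutant mean lies to the right of the control mean for 45 genes, and *Spc24* and *Pttg1* are the exceptions.

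The most widely used markers of proliferation showed small differences. *Mki67*, which encodes the Ki-67 protein that coats mitotic chromosomes, had means of 176.5 in control and 209.3 in mutant mice, a ratio of 1.19. *Top2a*, which encodes the topoisomerase that untangles DNA before chromosomes separate, had means of 137.5 and 178.01, a ratio of 1.29. *Cdk1*, the kinase that starts mitosis, had means of 27.6 and 33.0, a ratio of 1.20. These markers of cycling cells were measured at such levels in the controls too, and on the log2 scale *Mki67* and *Cdk1*, at 0.25 and 0.26, lay below the median of the 47 genes.

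The cyclins that bind CDK1 stood higher among the members than CDK1 itself. *Ccnb2* (chromosome 9, 70407692 to 70421547, GRCm38) had means of 13.3 in control and 21.8 in mutant mice, a log2 ratio of 0.71 (counting interval 0.62 to 0.80) that ranked 1 of 47. *Ccnb1* (chromosome 13, 100778650 to 100786570) had means of 22.9 and 35.6, a log2 ratio of 0.63 (0.57 to 0.70), and *Ccna2*, the cyclin of S phase and G2, had means of 51.2 and 75.6, a log2 ratio of 0.56. Pseudogenes named after *Ccnb1* and *Ccnb2* exist, and how reads shared with them were counted is not given in the sources used here, so their values are uncertain. *Ccnf*, an F-box protein that acts in G2, was at 12.04 and 14.1. The phosphatases that remove the inhibitory phosphates from CDK1 were nearer the middle of the members, with *Cdc25b* at 23.7 and 28.9 and *Cdc25c* at 5.72 and 7.27.

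Many genes of this phase are known to be controlled through their promoters by NF-Y, which binds CCAAT boxes, and by the DREAM and MMB complexes, which bind the cell cycle genes homology region (CHR). The bases before the RefSeq start (GRCm38.p6) are shown for *Ccnb2* and *Ccnb1*, among the members with the highest ratios, for *Cdk1*, whose ratio lay below the median, and as short stretches for *Nek2*, the second highest, and *Bub3*, the lowest of the members with a promoter in the table after *Pttg1*. Capitals mark CCAAT (or ATTGG on the other strand), the CHR letters TTTGAA or TTCGAA (or TTCAAA on the other strand) and the E2F-like letters TTTCGCGC, and bases inside annotated exons were left out except in stretches of 30 bases.
Ccnb2, chr9:70421555-70421754, minus strand: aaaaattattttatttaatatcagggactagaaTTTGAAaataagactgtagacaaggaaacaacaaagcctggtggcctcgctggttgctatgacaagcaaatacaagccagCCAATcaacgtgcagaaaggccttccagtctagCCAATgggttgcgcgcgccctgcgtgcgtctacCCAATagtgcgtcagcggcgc
Ccnb1, chr13:100786571-100786686, minus strand: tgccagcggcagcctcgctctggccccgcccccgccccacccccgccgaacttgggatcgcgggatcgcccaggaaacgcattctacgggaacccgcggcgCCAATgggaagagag
Cdk1, chr10:69352939-69353112, minus strand: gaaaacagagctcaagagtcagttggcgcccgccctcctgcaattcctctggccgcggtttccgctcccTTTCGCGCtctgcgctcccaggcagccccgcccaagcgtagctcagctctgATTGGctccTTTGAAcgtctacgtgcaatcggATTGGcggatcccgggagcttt
Nek2, chr1:191821433-191821462, plus strand: ttgtgttttctcagCCAATcagagttgaga
Bub3, chr7:131560320-131560349, plus strand: gttggcgTTCAAAatcagCCAATgataggc

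The *Ccnb2* stretch holds 3 CCAAT boxes whose first bases lie at -87, -54 and -21 from the start, each 33 bases from the next. *Ccnb1* has CCAAT at -99 and, in the part not shown, at -67, which are 32 bases apart. The *Cdk1* boxes lie on the other strand at -80 and -48, also 32 bases apart, with the CHR letters between them at -71 and again at -15. Over all the members' promoters used here, 9 of 34 gaps between neighbouring CCAAT boxes, on either strand, were 31 to 35 bases. Gaps were not counted in the promoters of other genes, so whether such a spacing is more frequent in the members is not known. Of the 47 members, 39 had a promoter in the RefSeq table, and the first start listed for a gene was used. The bases after that start lay in a transcript for 30 of the 39 promoters, and the rest were kept. CCAAT occurred on either strand within 200 bases before the start in 30 of these 39 (76.9%), against 32.1% of the 12719 genes of the data table with a promoter, and 20 (51.3%) held at least 2 boxes, against 10.9%. It occurred in 28 of 49 promoters (57.1%) of other mitotic genes and in 22 of 39 (56.4%) of DNA replication genes. The CHR letters TTTGAA or TTCGAA occurred in 14 of 39 (35.9%), against 9.40%, and in 17 of 49 promoters (34.7%) of other mitotic genes and 5 of 39 (12.8%) of DNA replication genes. All 14 promoters with CHR letters also held CCAAT, and the 9 promoters without CCAAT, that of *Pttg1* among them, held neither. The E2F-like letters TTTGGCGC, TTTCGCGC or TTTCCCGC occurred in 2 of 39 (5.13%), against 2.34%, in 4 of 49 promoters (8.16%) of other mitotic genes and in 9 of 39 (23.1%) of DNA replication genes. No matches of different motifs overlapped each other. The median log2 ratio was 0.39 for the 30 members with CCAAT and 0.29 for the 9 without, and it was 0.29 for the 14 members with CHR letters and 0.40 for the 25 without. *Bub3*, with a log2 ratio of 0.09, held 2 CCAAT boxes and the CHR letters. These letters describe the promoters and show neither binding nor a cause of the ratios.

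**Figure D2:**
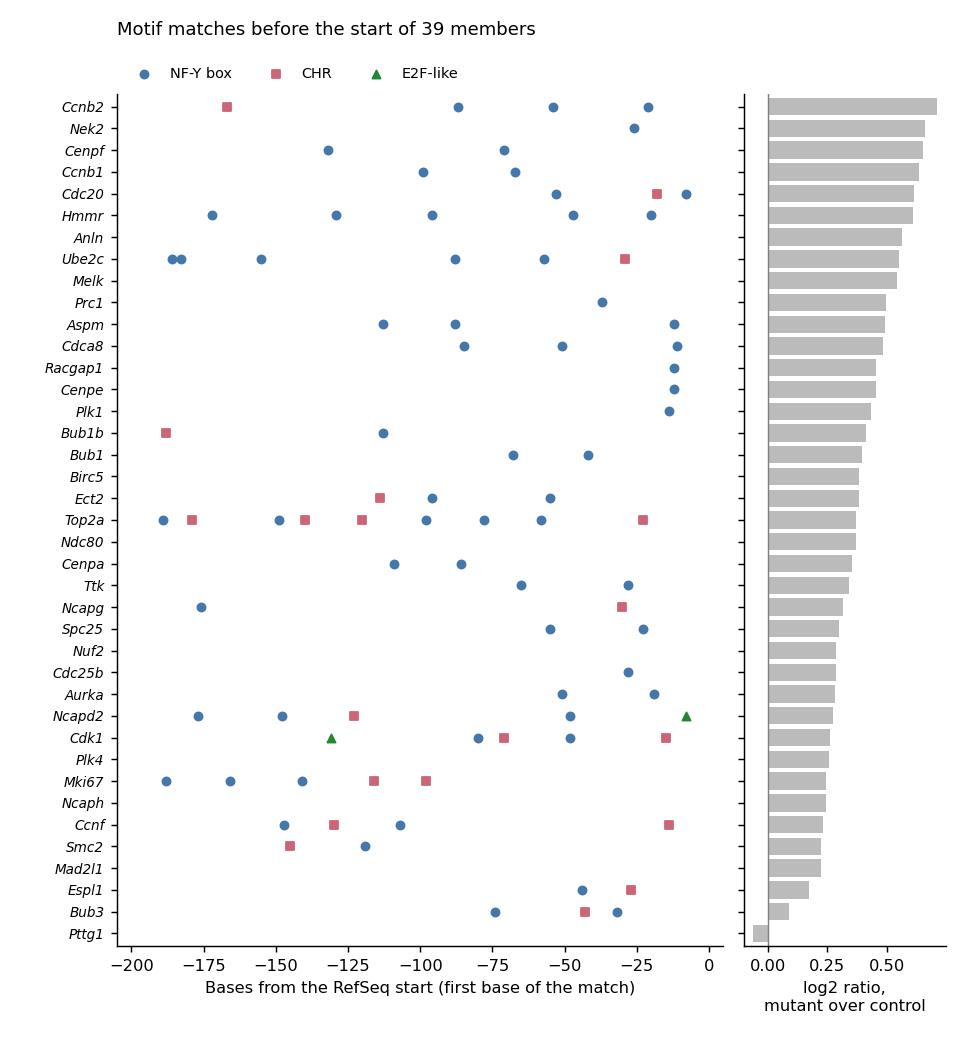
Position of each motif match in the 200 bases before the RefSeq start of 39 members (left; NF-Y box marks CCAAT, CHR marks TTTGAA or TTCGAA, on either strand), sorted by the log2 ratio of mutant over control (right, bars from 0). Of 64 CCAAT matches, 44 begin within 100 bases of the start, and the 9 members without one run from *Anln* at 0.56 to *Pttg1* at -0.06.

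*Foxm1* encodes the transcription factor that switches on many genes of this group in G2. Its mean was 27.9 in control and 33.5 in mutant mice, a log2 ratio of 0.27. Among the mitotic kinases, *Nek2* (chromosome 1, 191821444 to 191833050), which acts in centrosome separation, had means of 9.38 and 14.8 and a log2 ratio of 0.66 (counting interval 0.56 to 0.77). *Melk* followed with means of 11.9 and 17.4 and a log2 ratio of 0.55. *Plk1*, which acts at many steps of mitosis from entry to cytokinesis, had means of 10.6 and 14.2, a ratio of 1.35. *Plk4*, which starts the duplication of centrioles, and *Aurka*, which acts at the spindle poles, had smaller log2 ratios of 0.25 and 0.28. All 6 genes of this role were higher in the mutants, and 1 was over 1.5-fold higher.

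The chromosomal passenger complex corrects faulty attachments of chromosomes to the spindle. Its kinase gene *Aurkb* had means of 14.1 and 17.98, its subunit genes *Birc5* (survivin) 15.4 and 20.1, and *Cdca8* (borealin) 11.7 and 16.4, with log2 ratios of 0.35, 0.38 and 0.48. The scaffold gene *Incenp* had means of 37.6 and 40.5 and the smallest log2 ratio of the complex, 0.11, so the subunits of this complex ran from 0.11 to 0.48.

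A similar spread was seen in the spindle checkpoint. *Bub1b*, which encodes the checkpoint protein BUBR1, had means of 30.0 and 39.9, and the kinase gene *Bub1* 16.9 and 22.3, with log2 ratios of 0.41 and 0.40. *Ttk*, the kinase also known as MPS1, was at 9.95 and 12.6, a log2 ratio of 0.34. *Mad2l1* had means of 34.4 and 40.1, a log2 ratio of 0.22, and *Bub3*, whose protein carries BUB1 to kinetochores, had means of 59.7 and 63.4, a log2 ratio of 0.09. None of the 5 was over 1.5-fold higher.

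At the centromere and kinetochore, *Cenpf* (chromosome 1, 189640606 to 189688086) had means of 46.7 in control and 73.5 in mutant mice, a log2 ratio of 0.65 (counting interval 0.61 to 0.70). It was followed by *Cenpe*, a kinetochore motor protein gene, with means of 29.3 and 40.2 and a log2 ratio of 0.45. *Cenpa*, the histone variant that marks the centromere, was at 23.8 and 30.4, a ratio of 1.28. The 4 subunits of the NDC80 complex, which links kinetochores to microtubules, did not all go the same way. *Ndc80*, *Nuf2* and *Spc25* had log2 ratios of 0.37, 0.29 and 0.30. *Spc24* had means of 8.55 in control and 7.002 in mutant mice, a log2 ratio of -0.29 (counting interval -0.42 to -0.16), the lowest of the 47.

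Of the genes that promote anaphase, *Cdc20* (chromosome 4, 118432901 to 118437352), the activator of the APC/C in mitosis, had means of 15.5 and 23.7, a log2 ratio of 0.62 (counting interval 0.53 to 0.70). *Ube2c*, the ubiquitin-conjugating enzyme that works with the APC/C, had means of 15.95 and 23.4, a log2 ratio of 0.55. *Espl1*, which encodes separase, the protease that cuts cohesin, was at 12.3 and 13.9, a log2 ratio of 0.17. *Pttg1*, which encodes securin, the inhibitor of separase, was at 12.6 and 12.1, a log2 ratio of -0.06 whose counting interval of -0.17 to 0.04 includes 0. Thus the activator and the enzyme of the APC/C were among the higher members, and securin had nearly the same mean in each group.

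Condensin compacts chromosomes at the start of mitosis. Its 5 genes were all higher in the mutants, with log2 ratios from 0.11 (*Smc4*) to 0.32 (*Ncapg*) and a median of 0.25, the lowest median of the 9 roles. *Smc2* had means of 69.6 and 81.2, *Ncapd2* 61.9 and 74.7, and *Ncaph* 16.8 and 19.9. *Smc4* had means of 151.2 and 163.7. Per kb of merged exon, *Smc4* had the highest control level of the 47 members, 29.0, followed by *Mki67* at 17.5 and *Top2a* at 15.3, whereas *Cdc25c* was lowest at 1.16. The merged exon lengths are from GENCODE vM21 and count every annotated isoform.

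The genes of the spindle and of cytokinesis had the highest median of the 9 roles, 0.50 on the log2 scale, and all 7 had a mean over 25% higher in the mutants. *Hmmr* (chromosome 11, 40701395 to 40733422), which encodes a spindle assembly factor, had means of 16.7 and 25.5, a log2 ratio of 0.61 (counting interval 0.53 to 0.69). *Anln*, which encodes the anillin of the contractile ring, had means of 28.6 and 42.3 and a log2 ratio of 0.56. *Tpx2*, which activates Aurora A on spindle microtubules, had means of 38.2 and 55.1, and *Prc1*, which bundles microtubules of the central spindle, 37.8 and 53.3, with log2 ratios of 0.53 and 0.50. *Aspm*, a spindle pole protein gene, was at 23.7 and 33.3, a log2 ratio of 0.49. *Racgap1* and *Ect2*, whose proteins together activate RhoA for the division furrow, were at 34.6 and 47.5 and at 24.5 and 31.9.

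The 6 members over 1.5-fold higher were *Ccnb2*, *Nek2*, *Cenpf*, *Ccnb1*, *Cdc20* and *Hmmr*. Just short of the fold lay *Anln*, *Ccna2* and *Ube2c*, with ratios of 1.48, 1.48 and 1.47. The exons of 14 members overlap those of another gene, and 10 of them overlap a gene on the opposite strand, from which reads cannot be told apart because the counting by strand is not given in the sources used here. Values of 8 overlapping genes were in the table. *Gm38037*, which overlaps *Nek2*, had means of 0.255 and 0.347, a log2 ratio of 0.45, and *Lcorl*, which overlaps *Ncapg*, had means of 29.4 and 34.1, a log2 ratio of 0.21. *Elovl1*, which overlaps *Cdc20*, had means of 35.6 and 34.1, a log2 ratio of -0.06, and *Exosc9*, which overlaps *Ccna2*, had means of 22.9 and 23.5, a log2 ratio of 0.03. The log2 ratios of the other 4 were 0.10 for *9930104L06Rik* (with *Cdca8*), -0.08 for *Spef1* (with *Cdc25b*), -0.17 for *Rccd1* (with *Prc1*) and -1.29 for *Tnnc2* (with *Ube2c*), the last with means of 0.365 and 0.149. Of the 31 members with neither an overlap nor a pseudogene of their name, 29 were higher, against 50.5% of 12128 such genes. The median log2 ratio of the 31 was 0.34, and 2 (*Cenpf* and *Hmmr*) were over 1.5-fold higher. These 2 are 6.45% of the 31, below the 7.97% of all 12128 such genes, a share that includes many genes of low level. Of such genes with a mean of at least 10, 2 of 30 members (6.67%) were over 1.5-fold higher, against 2.39% of 6242 genes. Whether the members' share was larger thus rests on 2 genes and on which genes it is set against. A mean over 25% higher was reached by 16 of the 31 members (51.6%), against 14.7% of the 12128 genes. With 1 added to each mean, *Hmmr* had a log2 ratio of 0.582, short of the 0.585 that a ratio of 1.5 corresponds to.

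**Figure D3:**
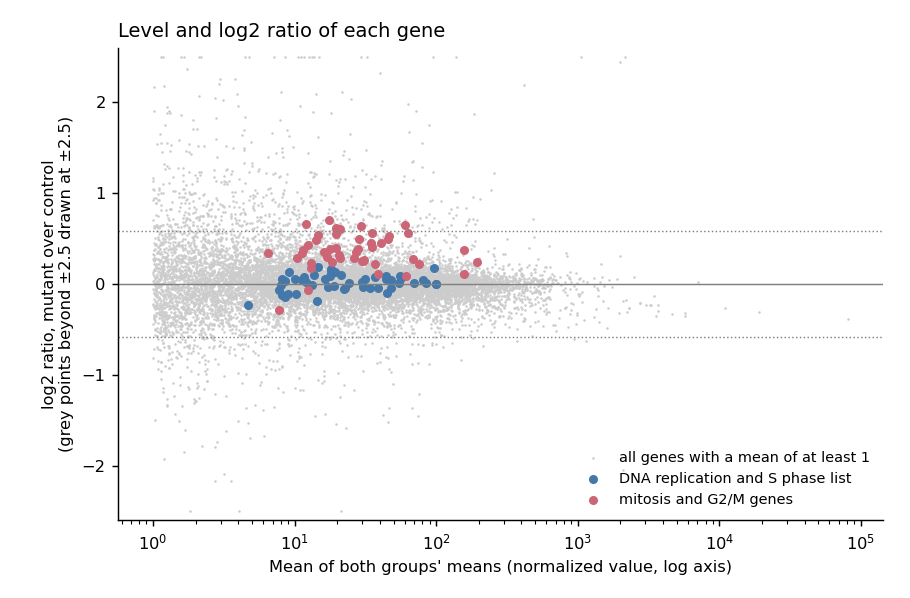
Log2 ratio of mutant over control against the mean of both groups' means (log axis) for genes with a mean of at least 1 (grey), the 49 listed genes of DNA replication and S phase (blue) and the 47 mitosis and G2/M genes (red), with dotted lines at a ratio of 1.5. Most red points lie above the blue ones of the same level, with medians of 0.35 and 0.02.

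The genes of the preceding phase of the cell cycle lay close to no difference. Of 49 listed genes of DNA replication and S phase, 30 (61.2%) were higher and 19 lower in the mutants, against 50.5% of all genes higher. Their median log2 ratio was 0.02, with a range from -0.23 to 0.19, and none had a mean over 25% higher, against 13.6% of all genes. Under scaling to the library means 41 of the 49 were higher, against 63.7% of all genes, with a median of 0.08. Of the genes whose mean reached 10, the highest were *Rfc3*, a subunit of the clamp loader, at 13.6 in control and 15.5 in mutant mice, and *Rrm1*, of ribonucleotide reductase, at 90.9 and 102.9. The lowest were *Rpa3*, at 15.2 and 13.4, and *Gins2*, at 10.7 and 9.90. The summed means of the 49 genes were 1513 in control and 1545 in mutant mice, a log2 ratio of 0.03, whereas those of the 47 mitotic genes were 1528 and 1931, a log2 ratio of 0.34. All 45 members that were higher, from *Bub3* at 0.09 upward, lay above the median of the S phase list. The lists overlapped, however. *Rfc3* at 0.19 and *Rrm1* at 0.18 lay above *Bub3* and above *Incenp* and *Smc4*, both at 0.11. The difference between the lists was not tested, since it would need values per gene and mouse.

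Other genes of mitosis that are not among the 47 went the same way. Of 61 listed genes, 58 were higher in mutant mice, against 50.5% of all genes, and the median log2 ratio was 0.26. Over 1.5-fold higher were 6 of the 61 (9.84%), against 7.37% of all genes, and over 25% higher were 30, against 13.6% of all genes. The highest of those whose mean reached 10 were *Kif2c*, a kinesin that takes microtubules apart at the centromere, with means of 8.16 and 13.003, and *Ckap2*, a protein of the spindle, with 13.9 and 22.1, both with a log2 ratio of 0.67. The lowest were *Zwint*, of the outer kinetochore, at 59.3 and 56.8, and *Ncapd3*, of condensin II, at 44.2 and 42.9.

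Genes that act in mitosis but are also made outside it had smaller medians. The 17 genes of the APC/C and its partners had a median log2 ratio of 0.02, from *Anapc13* at -0.13 and *Anapc16* at -0.13 to *Fzr1* at 0.13 and *Anapc10* at 0.22. The 9 cohesin genes, which hold sister chromatids together, had a median of 0.05, with *Smc1a* and *Smc3* at -0.04 and -0.02 and *Pds5b* and *Rad21* at 0.11 and 0.15. None of either list had a mean over 25% higher.

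The genes of the factors that act on the promoters described above also differed little. The 17 genes of DREAM, MMB and NF-Y had a median log2 ratio of 0.05, with *Tfdp2* and *Mybl2*, the latter an activator in MMB, at -0.14 and -0.11, and *E2f5* and *Lin9* at 0.14 and 0.22. The 8 genes of G1 progression were all slightly higher in mutant mice, with a median of 0.09, from *Ccnd3* at 0.004 and *Cdk4* at 0.03 to *Mycn* and *Myc* at 0.22.

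Among 19 genes of CDK inhibition and growth arrest, 14 were higher in mutant mice, against 50.5% of all genes, with a median log2 ratio of 0.18. Over 1.5-fold higher were 3 of the 19 (15.8%), against 7.37% of all genes. *Gas1*, a membrane protein that binds hedgehog ligands and is made by growth-arrested fibroblasts, had means of 57.7 and 90.2, and *Btg2*, an antiproliferative p53 target, 20.2 and 30.1. *Cdkn1c*, which encodes the CDK inhibitor p57, had means of 237.0 and 184.3, a log2 ratio of -0.36 that was the lowest of the list. The 3 genes over 1.5-fold higher were *Gas1*, *Cdkn2a* and *Cdkn2b*, the last 2 with means of at most 2.07. *Btg2* fell short at a ratio of 1.49, and *Ccng2* was at 52.3 and 49.6.

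**Figure D4:**
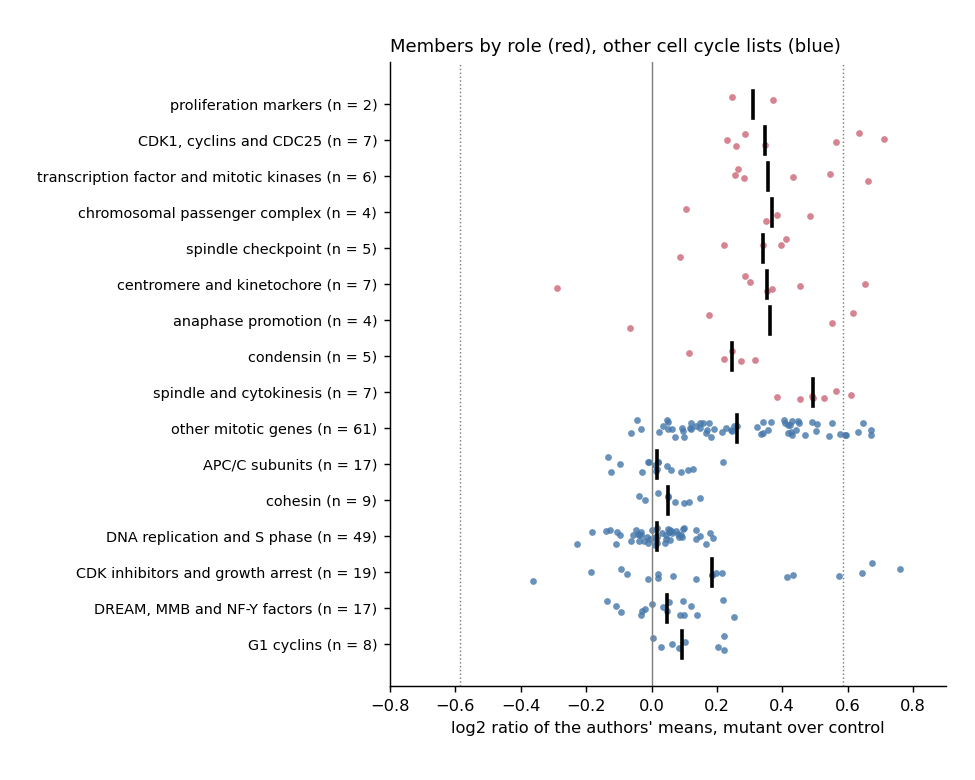
Log2 ratio of mutant over control for each gene of the 9 roles of the 47 members (red) and of 7 other cell cycle lists (blue), with the median of each list as a black bar and dotted lines at a ratio of 1.5 in either direction. Medians of the roles run from 0.25 to 0.50, and that of DNA replication and S phase is 0.02.

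Markers of other cell types differed between the groups as well, and their part in the members' ratios was not tested. The labelled tissue was seen in *Col1a1*, with means of 21211 and 17127, and in the odontoblast gene *Dspp*, with 5179 and 4136, the highest means of their lists before any correction for length. Of the 8 markers of dental mesenchyme, 7 were lower in mutant mice, with a median log2 ratio of -0.25, and *Gli1* was at 106.4 and 46.1, a log2 ratio of -1.21. *Gli1-CreER* is inserted into the *Gli1* gene and is carried by the mutants, so an effect of that allele on *Gli1* cannot be told apart from one of *Arid1b* loss or of fewer *Gli1*-expressing cells. The 4 odontoblast markers were all lower, and *Dmp1* was at 68.1 and 23.7. All 10 listed markers of dental epithelium were over 1.5-fold higher in mutant mice, with a median of 1.18. Their summed means were 1585 in control and 10285 in mutant mice, and none was at 0. The highest mean was that of *Amelx*, at 361.9 and 3946, and the enamel genes *Enam* and *Ambn* were at 135.8 and 1983 and at 617.4 and 3360. The keratins *Krt5*, *Krt14* and *Krt17* had log2 ratios of 1.22, 1.01 and 1.23, *Cdh1* and *Epcam* 0.85 and 0.78, and the transcription factor gene *Sox2* 0.74.

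Markers of blood cells that divide in marrow were measured as well. The markers of granulocyte precursors *Elane*, *Mpo* and *Prtn3* had means of at most 0.575, and the 8 genes measured of 9 listed summed to 24.4 in control and 19.4 in mutant mice, with *S100a9* highest at 8.003 and 6.35. Of 9 erythroid markers 7 were lower in mutant mice, with a median of -1.39, a sum of 138.6 in control and 100.01 in mutant mice, and *Hbb-bs* at 29.0 and 9.97. *Hbb-bt*, *Hba-a1*, *Hba-a2* and *Alas2* were also over 1.5-fold lower, and *Tfrc*, made by many dividing cells, had the highest mean at 71.0 and 73.4. The 5 measured markers of macrophages and leukocytes, of 6 listed, were all higher, with a median of 0.22, a sum of 149.2 and 175.2, and *Csf1r* at 84.8 and 97.3. The endothelial markers had a median of 0.05 and *Cdh5* at 95.2 and 94.4, and those of pericytes and smooth muscle -0.17 with *Rgs5* at 411.0 and 340.1. The glial list, with a median of -0.09, had *Mbp* at 11.3 and 15.2 and *S100b* over 1.5-fold higher from a mean of 1.18, and the skeletal muscle list summed to 5.98 in control and 5.43 in mutant mice, with *Acta1* (its highest control mean), *Ckm* and *Tnnt3* over 1.5-fold lower and *Myh4* over 1.5-fold higher.

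**Figure D5:**
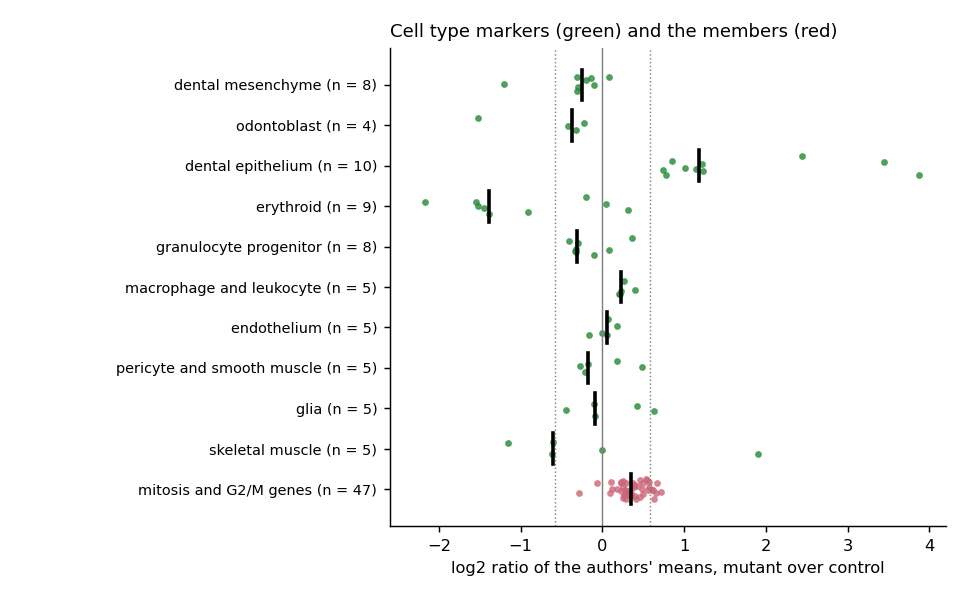
Log2 ratio of mutant over control for each measured marker of 10 cell types (green) and for the 47 mitosis and G2/M genes (red), with the median of each list as a black bar and dotted lines at a ratio of 1.5 in either direction. The epithelial markers lie from 0.74 to 3.87, the members from -0.29 to 0.71, and the mesenchymal markers have a median of -0.25.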

How the data were processed

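The 6 samples were bulk RNA-seq libraries of incisor tissue, 3 controls and 3 mutants by their titles. Read trimming, alignment to mm10 and the comparison were done by the authors with Partek Flow, and the submitters' processing notes name TopHat2 2.0.8. Annotation, counting and normalization are not given in the sources used here. The deposited values are a normalized signal, as the authors' least squares mean of each group per gene and as a summary per library. Averaged over genes, the group columns equalled the averages of their library means (53.1 and 50.9). The p-value, FDR, ratio and fold change columns and the filtered table hold the authors' own comparison and were not used, nor were 3 other numeric columns of the library summary.

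Log2 ratios of the authors' means were computed with Python 3.11.15, numpy 2.4.6 and pandas 2.3.3, with no pseudocount, and plotted with matplotlib 3.10.9. A ratio over 1.5 in either direction counted as past the fold, without a test. Counting intervals (95%, normal approximation on the log scale) rest on estimated reads, taking the lowest value of a library as 0 reads plus 1. Exons are from GENCODE vM21 (GRCm38), which matched all 47 members, and promoters are from RefSeq (GRCm38.p6). The members and lists were chosen with earlier results of these data known. Named genes were all members, the 2 highest and 2 lowest genes with a mean of at least 10 of each other cell cycle list, the most abundant marker and those past the fold of each cell type, *Arid1b*, *Xist* and *Ddx3y*. Others, namely *Cdkn2a*, *Cdkn2b*, *Elane*, *Mpo*, *Prtn3* and the genes overlapping members, were named after their values were seen. Some listed markers are counted but not reported singly here. Alternatives were other folds, scaling, centring, a pseudocount, subtraction of the lowest value, a minimum mean, removal of overlapping genes and other promoter windows.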

Additional observations from a re-analysis of the deposited data

How the results depend on the processing

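No paired analysis was possible because the tables used here give group means and no value per gene and library, and for the same reason no library could be left out in turn. The differences between mice are therefore unknown for every ratio given. Scaling to the library means (total scaling) put 11 members over 1.5-fold higher in place of 6, with medians of 0.41 for the members, 0.079 for the S phase list and 0.32 for the other mitotic genes, since it raises each log2 ratio by 0.061. With 1 added to each mean 5 members were over 1.5-fold higher, *Hmmr* being the one no longer so at 0.582, and the medians were 0.34 for the members and 0.24 for the other mitotic genes. For genes whose mean reached 10 they were 0.37, 0.030 and 0.34. Without genes that overlap others or have a pseudogene of their name, 31 members remained, with a median of 0.34. Of these, 29 were higher, against 50.5% of all such genes, and 2 were over 1.5-fold higher (6.45%, against 7.97% of all such genes). Once the mean had to reach 10, the shares went the other way, 6.67% of members against 2.39%. Over 25% higher were 51.6% of the 31, against 14.7%. Among all 47 members, a mean over 25% higher was found for 27 and a mean over 2-fold higher for 0, and no member was lower by as much. Centring, subtraction of the lowest value and the mean in place of the median left the members' median between 0.35 and 0.36, and no member changed sign under the 4 alternatives of scale. Among all genes 63.7% were higher under total scaling, in place of 50.5%, and the number higher was 14 of 17 for the APC/C and for DREAM, MMB and NF-Y and 9 of 9 for cohesin, so how many of their genes were higher rests on the scaling, while their medians were above 0 either way. Within 100 bases of the start CCAAT occurred in 64.1% of the members' promoters, against 22.7% over all genes, and CHR letters in 23.1% against 3.69%. Within 250 bases the shares were 76.9% against 35.9% and 35.9% against 12.8%, and TTTGAA alone occurred in 33.3% against 8.18% within 200. CHR letters were in 26.5% (100 bases) and 38.8% (250 bases) of the promoters of other mitotic genes, above the members' shares.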
